A study of Danio rerio with 6 samples.

Results

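The genes tbx1, hand2 and nkx2.7 were followed in whole zebrafish embryos exposed to SB505124, an inhibitor of the type I receptors for Nodal, activin and TGF-beta ligands. They were chosen by name as genes of the pharyngeal and cardiac mesoderm, with earlier results of these data known. All 3 were found, with 1 record each, among the 13274 genes of the authors' table. Their NCBI gene identifiers are 368206 for tbx1, 58150 for hand2 and 30694 for nkx2.7. Embryos received the inhibitor either from sphere stage (sphere-treated) or from 30% epiboly (epiboly-treated), and were then collected at shield, tailbud or 7-somite stage. The sphere-treated groups are therefore set against a later start of the same inhibitor, and every group carries SB505124. The labels name no genotype, strain or dose, and an untreated group was not analysed here. The labels list 1 pooled sample of 30 to 60 embryos per group.

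tbx1 encodes a T-box transcription factor of the pharyngeal arches, the head muscles and the part of the heart that is added late to the outflow tract. It is also expressed in pharyngeal endoderm and the otic vesicle. hand2 encodes a basic helix-loop-helix factor of the lateral plate mesoderm that is required for heart muscle, for migration of the heart fields to the midline, and for the fin buds and the jaw. nkx2.7 encodes an NK-2 homeodomain factor of the heart fields and pharyngeal tissue, and works alongside its relative nkx2.5. Nodal signalling at the blastula margin induces endoderm and much of the mesoderm before and during gastrulation, and the heart and pharyngeal fields arise from marginal cells.

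Each group has an upper-quartile normalized (UQN) mean, a whole-number score, and its standard error, both from the authors' table. Values below are given as mean ± standard error. The means of all records sum to between 15311014 and 21048013 per group, and for records with a mean of 100 or more the standard error was typically (median) 2.46% to 5.18% of the mean, depending on the group. The standard errors fit means of 3 whole-number values, a number inferred from the table and not stated in the labels. What separates the 3 values is unknown, and the p-values rest on that spread alone, technical or not. With 3 values, none can lie farther than 2 standard errors from the mean. This bound, widened by 0.5 for rounding, tells where the values of 2 groups cannot overlap. For the log2 ratio, 5 was added to each mean and the sphere-treated value divided by the epiboly-treated one, which makes the changes of low genes look smaller than they are. It was tested with limma-moderated variances taken from the standard errors, and p-values were adjusted over all 13274 genes with a threshold of 0.05. In whole embryos, fewer cells of a type and less RNA per cell cannot be told apart.

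tbx1 was lower in sphere-treated embryos at every stage, and it was close to undetected there at tailbud. At shield it was at 6 ± 4.37 in sphere-treated embryos, against 66 ± 6.89 in epiboly-treated embryos. At tailbud it was at 2 ± 0.577 in sphere-treated embryos and 370 ± 44 in epiboly-treated embryos. At 7-somite it was at 13 ± 1 in sphere-treated embryos and 261 ± 16 in epiboly-treated embryos. The values of the 2 onsets cannot overlap at any of the 3 stages. In sphere-treated embryos no single value can exceed 15.2 at shield, 3.7 at tailbud or 15.5 at 7-somite, while the lowest possible values in epiboly-treated embryos are 51.7, 281.6 and 228.6.

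The sphere-treated mean of tbx1 was thus 9.09% of the epiboly-treated mean at shield, 0.541% at tailbud and 4.98% at 7-somite. The log2 ratio was -2.69 at shield (95% interval -3.77 to -1.61, limma adjusted p = 0.0083). It was -5.74 at tailbud (-6.26 to -5.23, limma adjusted p = 3.0e-06) and -3.89 at 7-somite (-4.26 to -3.51, limma adjusted p = 4.3e-07). Ordered by log2 ratio from the lowest, tbx1 held rank 1 of 13274 at shield and at tailbud, and rank 14 at 7-somite. These ranks are a description only. Every record in the table reaches a mean of 101 in some group, and tbx1 does so in epiboly-treated embryos alone, whereas hand2 and nkx2.7 do so in both onsets. Because the sphere-treated means are near 0, the size depends on the pseudocount. At tailbud the log2 ratio was -6.95 with a pseudocount of 1 and -4.15 with 20. At shield it was -3.26 and -1.73, and at 7-somite -4.23 and -3.09. The shield call was lost when limma's moderation of the variance was left out (adjusted p = 0.055).

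**Figure D1:**
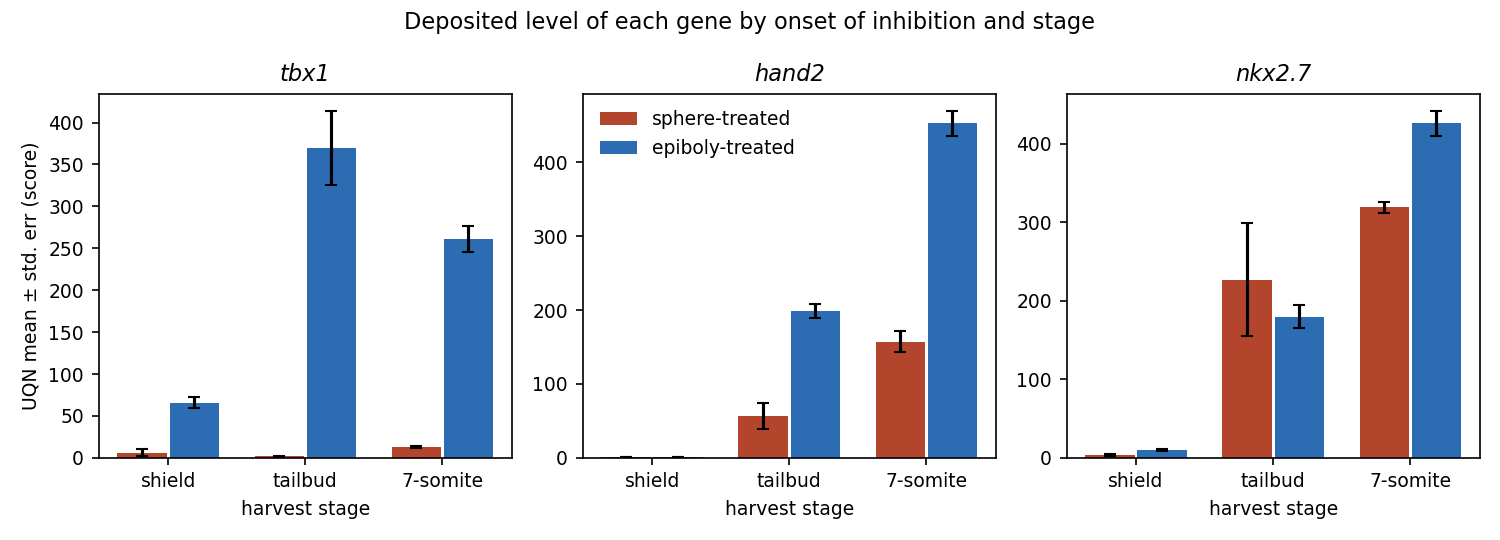
UQN mean (score, linear axis from 0) of tbx1, hand2 and nkx2.7 at shield, tailbud and 7-somite stage in sphere-treated (left bar of each pair) and epiboly-treated (right bar) embryos; error bars are the deposited standard errors. tbx1 stays at or below 13 in every sphere-treated group, and the nkx2.7 bars are of like height at tailbud (227 and 180). hand2 is at 1 in both onsets at shield, is lower in sphere-treated embryos at tailbud and 7-somite, and rises with stage in both onsets.

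The course of tbx1 over the stages also differed with onset. In epiboly-treated embryos it rose by 2.4 on the log2 scale between shield and tailbud (limma adjusted p = 7.7e-07), and then fell by 0.50 between tailbud and 7-somite (limma adjusted p = 0.017). In sphere-treated embryos the step between shield and tailbud did not pass the test (log2 change -0.65, interval -1.90 to 0.59, limma adjusted p = 0.32). Between tailbud and 7-somite tbx1 rose in sphere-treated embryos by 1.36 on the log2 scale, to 13 (limma adjusted p = 0.0037). The peak of tbx1 was thus at tailbud in epiboly-treated embryos, and its highest sphere-treated mean was at 7-somite. Tested directly, the onset ratio at tailbud lay below that at shield, with a log2 difference of -3.05 (limma adjusted p = 0.0036). It was higher at 7-somite than at tailbud by 1.86 (limma adjusted p = 0.0023). Both sizes depend on the pseudocount, since the sphere-treated means are low. Between shield and 7-somite the difference of -1.20 did not pass (limma adjusted p = 0.081), although it did with a pseudocount of 20 (-1.36, limma adjusted p = 0.0023).

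The level of tbx1 in later sphere-treated embryos was set against that of the earliest epiboly-treated group. Sphere-treated embryos at tailbud had less tbx1 than epiboly-treated embryos at shield, with a log2 ratio of -3.34 (limma adjusted p = 3.7e-06). Sphere-treated embryos at 7-somite likewise had less, at 13 ± 1 against 66 ± 6.89 in epiboly-treated shield embryos (log2 ratio -1.98, limma adjusted p = 6.7e-06). In the order of the 6 levels, the 3 sphere-treated groups stand below the 3 epiboly-treated groups. Among the sphere-treated groups, shield at 6 did not differ from tailbud at 2 or from 7-somite at 13 beyond the spread (limma adjusted p = 0.32 and 0.2).

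hand2 was barely present at shield in either onset and then appeared at a lower level in sphere-treated embryos. At shield it was at 1 ± 0 in sphere-treated and 1 ± 0.333 in epiboly-treated embryos, and its log2 ratio of 0.00 there says little, both means being near 0. At tailbud it was at 57 ± 17.9 in sphere-treated embryos, against 199 ± 9.67 in epiboly-treated embryos. At 7-somite it was at 157 ± 14.3 in sphere-treated embryos and 453 ± 16.7 in epiboly-treated embryos. At both of these stages the values of the 2 onsets cannot overlap. The highest possible sphere-treated values are 93.4 and 186.2, and the lowest possible epiboly-treated values 179.2 and 419.1.

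The sphere-treated mean of hand2 was 28.6% of the epiboly-treated mean at tailbud and 34.7% at 7-somite. The log2 ratio was -1.72 at tailbud (95% interval -2.43 to -1.0, limma adjusted p = 0.020) and -1.50 at 7-somite (-1.78 to -1.21, limma adjusted p = 8.8e-05). The tailbud call was lost when the variance was moderated without a trend on level (limma adjusted p = 0.068) and without moderation (adjusted p = 0.28 with limma's moderation left out). By log2 ratio hand2 held rank 115 at tailbud and rank 66 at 7-somite, counted from the lowest. The ratio did not differ between these stages beyond its error (log2 difference 0.22, interval -0.59 to 1.02, limma adjusted p = 0.78). It was lower than at shield at both tailbud (-1.72, limma adjusted p = 0.015) and 7-somite (-1.50, limma adjusted p = 9.5e-04).

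Unlike tbx1, hand2 increased with stage in both onsets. In sphere-treated embryos it rose by 3.37 on the log2 scale between shield and tailbud (limma adjusted p = 1.3e-04) and by 1.39 between tailbud and 7-somite (limma adjusted p = 0.0087). In epiboly-treated embryos it rose by 5.09 (limma adjusted p = 5.2e-09) and 1.17 (limma adjusted p = 8.6e-06). Each onset had its highest mean at 7-somite, and the tailbud mean was 36.3% of that peak in sphere-treated and 43.9% in epiboly-treated embryos. The sphere-treated 7-somite level of 157 ± 14.3 and the epiboly-treated tailbud level of 199 ± 9.67 are neighbours in the order of levels, and their difference did not pass after adjustment, though its unadjusted interval lies below 0 (log2 ratio -0.33, interval -0.66 to -0.01, limma adjusted p = 0.081). The 2 shield groups were the other neighbours without a call.

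The log2 ratio of nkx2.7 was smaller in size than that of tbx1 at every stage, though the difference between genes was not tested. At shield nkx2.7 was at 4 ± 1.2 in sphere-treated embryos and 10 ± 1.76 in epiboly-treated embryos, both low. The sphere-treated mean was thus 40% of the epiboly-treated mean. At tailbud it was at 227 ± 71.9 in sphere-treated embryos and 180 ± 14.7 in epiboly-treated embryos. At 7-somite it was at 319 ± 7.51 in sphere-treated embryos, against 426 ± 16 in epiboly-treated embryos. The values of the onsets can overlap at shield and at tailbud and cannot at 7-somite, where the highest possible sphere-treated value is 334.5 and the lowest possible epiboly-treated value 393.4.

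nkx2.7 fell at shield by 0.74 on the log2 scale (95% interval -1.27 to -0.20, limma adjusted p = 0.037), a call lost without moderation of the variance (adjusted p = 0.1 with limma's moderation left out). The size there depends on the pseudocount, with a log2 ratio of -1.14 with 1 and -0.32 with 20. At tailbud the log2 ratio of 0.33 did not pass the test (interval -0.42 to 1.07, limma adjusted p = 0.69). At 7-somite nkx2.7 fell by 0.41 on the log2 scale (interval -0.62 to -0.20, limma adjusted p = 0.013), to 74.9% of the epiboly-treated mean. That call was lost with variances pooled over the 6 groups (limma adjusted p = 0.30) and without moderation (adjusted p = 0.052 with limma's moderation left out). The onset ratio did not pass the test of the difference between any 2 stages (limma adjusted p = 0.11, 0.30 and 0.35). For tailbud minus shield the log2 difference was 1.06, and its unadjusted interval of 0.06 to 2.07 lies above 0. The spread of nkx2.7 in sphere-treated tailbud embryos was wide. Its relative standard error there was 31.7%, that of hand2 was 31.5%, and the median of that group was 5.15%.

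Over the stages nkx2.7 rose by 4.69 on the log2 scale between shield and tailbud in sphere-treated embryos (limma adjusted p = 2.4e-05) and by 3.62 in epiboly-treated embryos (limma adjusted p = 9.4e-08). Between tailbud and 7-somite it rose by 1.22 in epiboly-treated embryos (limma adjusted p = 1.8e-05), whereas the step of 0.48 in sphere-treated embryos did not pass (interval -0.26 to 1.23, limma adjusted p = 0.24). At tailbud the sphere-treated mean was already 71.2% of its 7-somite peak, against 42.3% in epiboly-treated embryos. Sphere-treated embryos at 7-somite had more nkx2.7 than epiboly-treated embryos at tailbud (log2 ratio 0.81, limma adjusted p = 6.2e-04), the opposite side to tbx1 in the same pair of groups, where the values were 13 ± 1 and 370 ± 44. In the order of its levels, epiboly-treated tailbud embryos at 180 and sphere-treated tailbud embryos at 227 did not differ beyond the spread (limma adjusted p = 0.69), nor did sphere-treated tailbud and sphere-treated 7-somite embryos (limma adjusted p = 0.24).

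Counted together, 2 of the 3 genes fell at shield, 2 at tailbud and 3 at 7-somite. Over all genes tested, 21.3% were called lower at shield, 2.3% at tailbud and 13.5% at 7-somite. The members were chosen with earlier results known, and tbx1 reaches the minimum mean set for every record in epiboly-treated embryos alone. The counts here are thus not an independent draw to set against shares of all genes. Without the trend of variance on level, which was adopted after both results were seen, the tailbud count was 1. Values that cannot overlap, with sphere-treated embryos lower, were found for 1 of the 3 genes at shield, 2 at tailbud and 3 at 7-somite, against 25.9%, 8.09% and 19.3% of all genes. At shield the members' share of calls is therefore to be read against a stage where 43.1% of all genes were called in one direction or the other. For the steps within an onset, the 3 genes rose between shield and tailbud in epiboly-treated embryos (32.9% of all genes rose) and 2 of them, hand2 and nkx2.7, rose in sphere-treated embryos (20.4%). Between tailbud and 7-somite 2 rose in each onset (25.1% of all genes in sphere-treated and 23.1% in epiboly-treated embryos), and tbx1 alone of the members fell, in epiboly-treated embryos (24.9%). Of the differences between stages, 2 members had a lower onset ratio at tailbud than at shield (13.6% of all genes), while 1 had a higher ratio at 7-somite than at tailbud (1.79%) and 1 a lower ratio at 7-somite than at shield (22.0%).

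**Figure D2:**
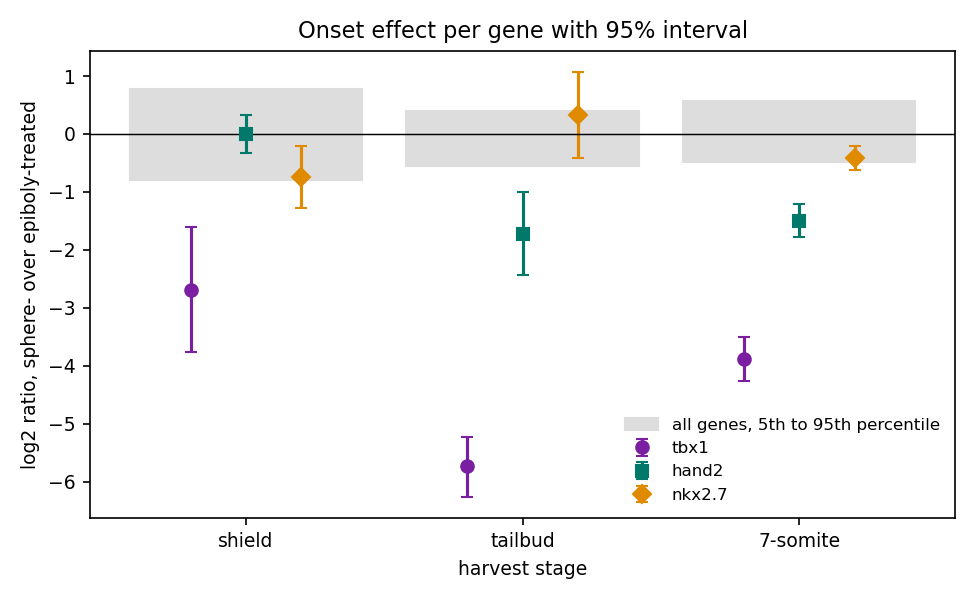
Log2 ratio of sphere- over epiboly-treated embryos for tbx1 (circles), hand2 (squares) and nkx2.7 (diamonds) at each stage; bars are 95% intervals from the limma-moderated errors, and grey boxes span the 5th to 95th percentile of all 13274 genes. The 3 intervals do not touch at tailbud or 7-somite, with tbx1 lowest (-5.74 and -3.89), hand2 between (-1.72 and -1.50) and nkx2.7 nearest 0 (0.33 and -0.41).

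The intervals of the 3 log2 ratios did not overlap one another at tailbud or at 7-somite, as the plot of ratios by stage shows. The difference between genes was not tested, since their values come from the same libraries. The nkx2.7 ratio lay within the range of the central genes at each stage. The 5th and 95th percentiles of all genes were -0.79 and 0.78 at shield, -0.55 and 0.40 at tailbud, and -0.49 and 0.57 at 7-somite. Averaged over the 3 stages, the log2 ratio was -4.11 for tbx1 (limma adjusted p = 1.5e-10), -1.07 for hand2 (limma adjusted p = 4.9e-05) and -0.27 for nkx2.7 (limma adjusted p = 0.20). The first 2 of these are calls lower, against 16.9% of all genes, and the limits given for the counts above hold here too. These calls were lost in a limma fit on the 6 group means with stage as a block, which has 2 residual degrees of freedom (adjusted p = 0.54 for tbx1 and 0.66 for hand2). That limma fit called 0 of the 13274 genes, with 974 at an unadjusted p under 0.05.

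The authors' deposited table marks tbx1 as differentially expressed at a 50% change at tailbud and 7-somite and not at shield. The ratios in the authors' deposited table run epiboly-treated over sphere-treated and match means with 1 added to each. For tbx1 the ratio is 9.571 at shield, 123.667 at tailbud and 18.714 at 7-somite. These are smaller than the ratios of the means themselves, which at tailbud is 185. In the authors' deposited table hand2 is marked at tailbud (3.448) and 7-somite (2.873), and nkx2.7 at no stage.

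The shapes of the 6 group means were compared with those of 5991 named genes whose means span at least 1 on the log2 scale. As a description over 6 groups that share libraries, log2 means of hand2 and nkx2.7 correlated at Pearson's r = 0.96, those of tbx1 and hand2 at 0.48, and those of tbx1 and nkx2.7 at 0.27. The 5 genes most like tbx1 were pltp (r = 0.963), foxa2 (0.959), aff3 (0.957), twist1a (0.952) and plekhg2 (0.947). Like tbx1, each of these 5 reaches the minimum mean set for every record in epiboly-treated embryos alone. They were also picked for likeness over the same means. Their lower level in sphere-treated embryos is thus independent neither of that minimum nor of tbx1. foxa2 encodes a forkhead factor of endoderm and axial midline, and twist1a a helix-loop-helix factor of mesoderm and neural crest. twist1a was at 10 ± 2.33 in sphere-treated and 534 ± 58.5 in epiboly-treated tailbud embryos, and foxa2 at 7 ± 2.19 and 402 ± 47.6 in the same groups. At the other stages their onset ratios lay nearer 0 than those of tbx1. The log2 ratio at shield was -0.93 for foxa2 and -1.32 for twist1a, and at 7-somite -2.0 and -2.98. By the root mean square difference of the centred log2 means, foxa2 and twist1a remained among the 5 nearest, joined by ntd5, sox17 and osr1.

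**Figure D3:**
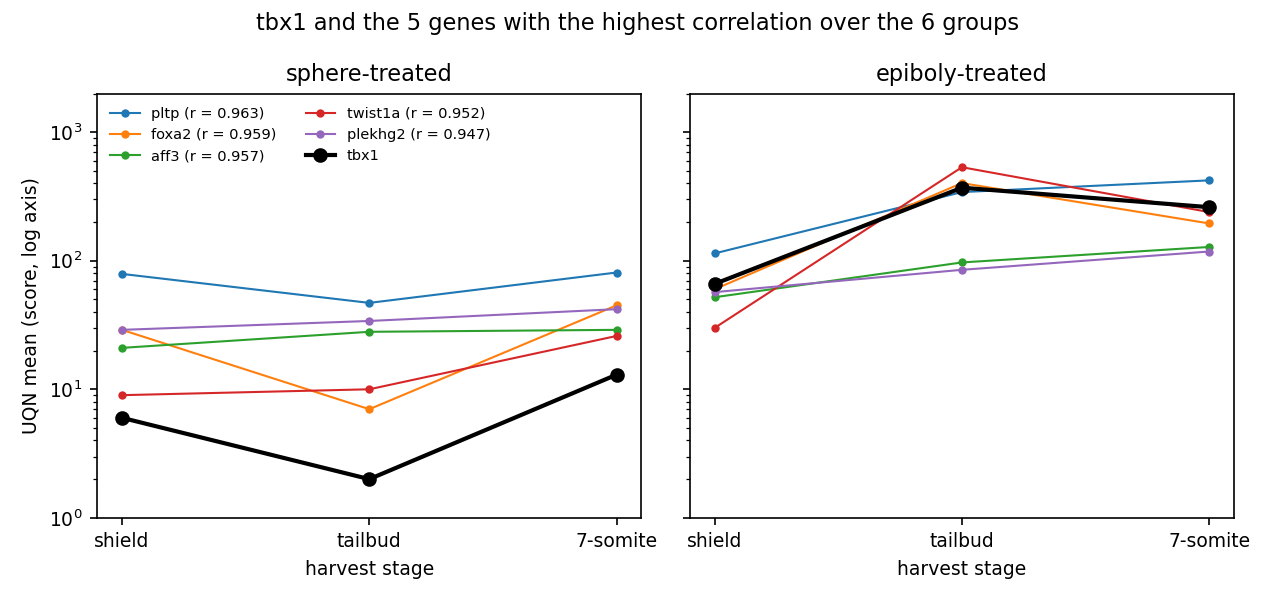
UQN means (score, log axis) over the 3 stages of tbx1 (black) and the 5 genes whose log2 means correlate best with it over the 6 groups, in sphere-treated (left) and epiboly-treated (right) embryos. At tailbud foxa2 and twist1a are at 7 and 10 in sphere-treated and 402 and 534 in epiboly-treated embryos, near tbx1, while in sphere-treated shield and 7-somite embryos foxa2 lies above it, at 29 and 45 against 6 and 13.

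The 5 genes most like hand2 were lrrn1 (r = 0.997), rnd1a (0.995), casz1 (0.994), msh6 (0.993) and p3h2 (0.993). casz1 encodes a zinc finger factor of heart development and was at 50 ± 15.9 in sphere-treated and 113 ± 13.2 in epiboly-treated tailbud embryos, a difference that did not pass the test. At 7-somite casz1 fell, to 94 ± 7.33 in sphere-treated embryos, against 133 ± 7.67 in epiboly-treated embryos (log2 ratio -0.48, limma adjusted p = 0.046). Because casz1 is named here for its likeness to hand2 over the same means, the direction of these differences is not independent of hand2. The 5 most like nkx2.7 were arr3b (0.995), spata13 (0.995), ube2ka (0.994), dhrs11a (0.994) and barhl2 (0.994). For hand2 and nkx2.7, none of these 5 stayed among the 5 nearest by the root mean square difference, so the names depend on the measure.

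Other cardiopharyngeal genes were taken as a list of 26, of which 18 were measured, tbx1 and nkx2.7 included. Members are counted in the values that follow. At shield 5 fell and 3 rose, with a median log2 ratio of -0.10 beside 0.01 over all genes. At tailbud 6 fell and 12 did not pass, with a median of -0.75 beside -0.01. At 7-somite 9 fell and 2 rose, with a median of -0.35 beside -0.02. Without tbx1 and nkx2.7, 3 of 16 fell at shield, 5 at tailbud and 7 at 7-somite. After tbx1, the genes that fell most at tailbud were twist1a (log2 ratio -5.17), foxc1a, a forkhead gene of somites and head mesoderm (-3.64, 99 ± 44 in sphere-treated and 1289 ± 110 in epiboly-treated embryos), and hoxb1a, a hindbrain gene (-2.67). twist1a, like tbx1, reaches the minimum mean set for every record in epiboly-treated embryos alone, so its fall is not independent of that minimum. isl1a, a marker of late-added heart cells and of neurons that was named after its values were seen, was at 124 ± 7.84 in sphere-treated and 207 ± 9.9 in epiboly-treated 7-somite embryos (limma adjusted p = 0.0058). prdm1a, a zinc finger gene, and fgf8a, a secreted growth factor gene, rose at shield, with log2 ratios of 2.09 and 1.70. fgf8a then fell at tailbud (-0.85, limma adjusted p = 0.026).

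**Figure D4:**
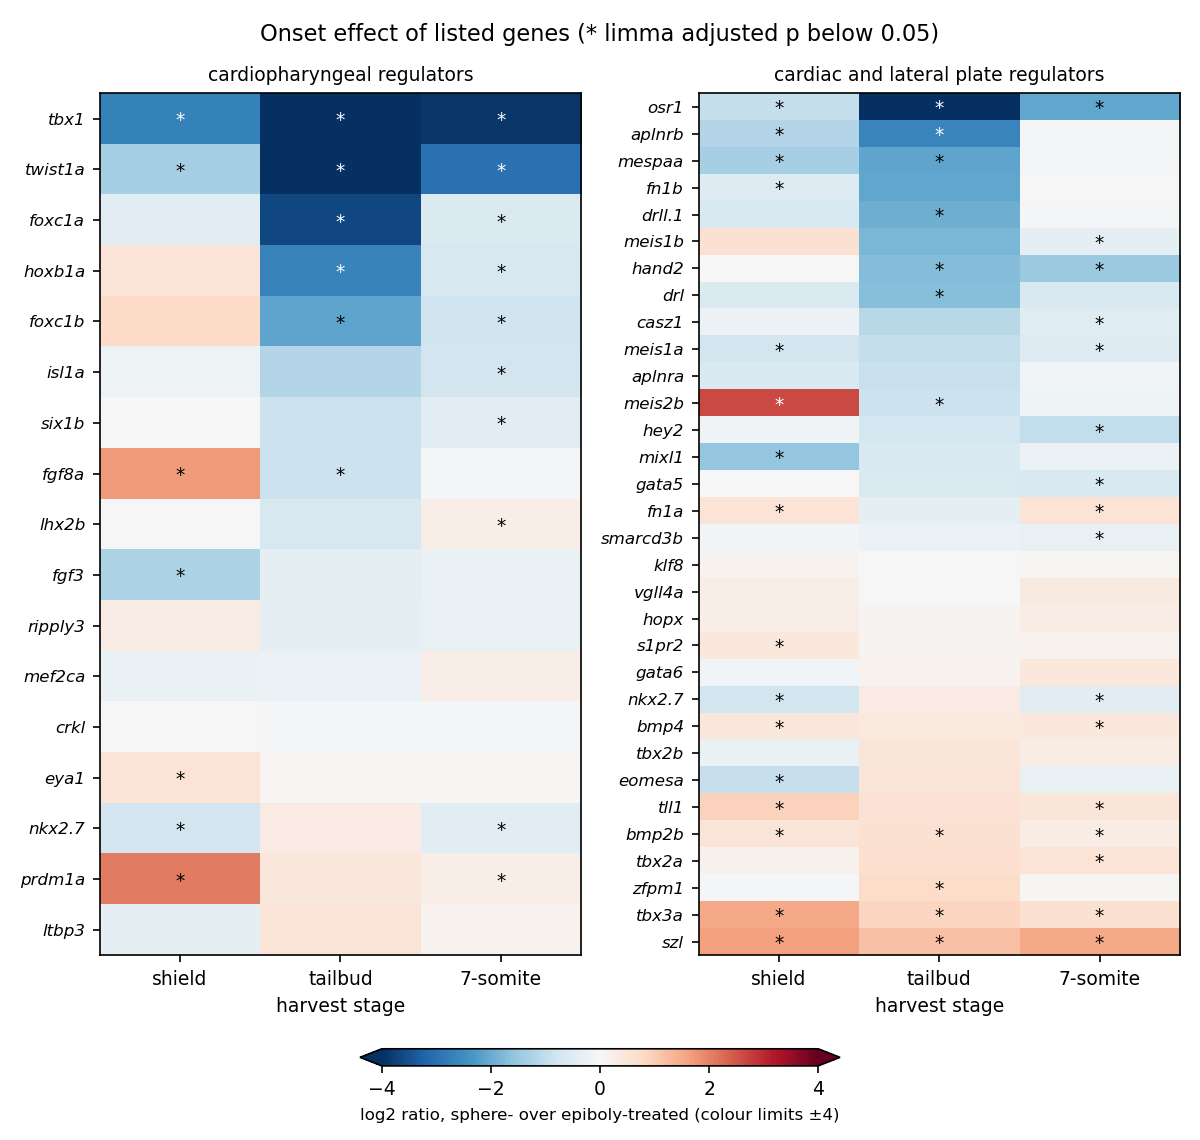
Log2 ratio of sphere- over epiboly-treated embryos (colour) for measured genes of the cardiopharyngeal list (left) and of the cardiac and lateral plate list (right) at 3 stages, ordered by the tailbud ratio; a star marks a limma adjusted p under 0.05. tbx1 and twist1a are lower at all 3 stages, while szl and tbx3a are higher at all 3.

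The cardiac and lateral plate list held 43 genes, of which 32 were measured, hand2 and nkx2.7 included. At shield 8 fell and 8 rose, with a median log2 ratio of -0.10. At tailbud 7 fell and 4 rose, with a median of -0.31, and at 7-somite 9 fell and 7 rose, with a median of -0.07. Without hand2 and nkx2.7, 7 of 30 fell at shield, 6 at tailbud and 7 at 7-somite. Calls over all genes at the same stages were 21.3% lower and 21.8% higher, 2.3% and 0.738%, and 13.5% and 9.46%. These shares also stand beside the counts of the cardiopharyngeal list above and of the lists below. The 7-somite split over all genes depends on scaling, with 1796 lower and 1256 higher as deposited and 1179 lower and 1774 higher with equal totals.

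Within that list, osr1, a zinc finger gene of intermediate and lateral mesoderm, fell at all 3 stages and most at tailbud, at 25 ± 2.33 in sphere-treated and 582 ± 49.2 in epiboly-treated embryos. aplnrb, an apelin receptor gene required for heart progenitors, was at 148 ± 57.6 in sphere-treated and 941 ± 79 in epiboly-treated tailbud embryos (limma adjusted p = 0.0060). At 7-somite aplnrb was at 600 ± 67.8 and 625 ± 6.39, a difference that did not pass. mespaa, a helix-loop-helix gene of early mesoderm, was at 19 ± 8.57 and 98 ± 8.02 at tailbud in sphere-treated and epiboly-treated embryos (limma adjusted p = 0.023). mespaa reaches the minimum mean set for every record in epiboly-treated embryos alone, so its lower level in sphere-treated embryos is not independent of that minimum. drl and drll.1, lateral plate zinc finger genes, also fell at tailbud, with log2 ratios of -1.71 and -1.95. Their names mark them as relatives. Whether reads of one were counted for the other was not tested, so their separate values are uncertain.

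The GATA factor genes of the list, which act with hand2 and the NK-2 genes in the heart fields, passed the test only for gata5 at 7-somite. gata5 was at 913 ± 63.4 in sphere-treated and 1366 ± 181 in epiboly-treated tailbud embryos (limma adjusted p = 0.11), and at 521 ± 100 and 791 ± 42.5 at 7-somite (limma adjusted p = 0.049). gata6 was at 1133 ± 69.8 in sphere-treated and 1038 ± 148 in epiboly-treated embryos at tailbud and did not pass at any stage. hey2, a Notch target gene of the heart fields, fell at 7-somite to 64 ± 7.86 in sphere-treated embryos, against 131 ± 10 in epiboly-treated embryos (limma adjusted p = 0.0059). hey2 reaches the minimum mean set for every record in epiboly-treated 7-somite embryos alone, so this fall is not independent of that minimum. Among the listed genes that rose were some of BMP signalling, which was not tested as a group. The ligand gene bmp2b rose at all 3 stages, and bmp4 rose at shield and 7-somite and did not pass at tailbud (limma adjusted p = 0.089). szl, a feedback inhibitor of BMP signalling, rose at all 3, with log2 ratios of 1.64, 1.17 and 1.51. tbx3a, a T-box gene, rose at all 3 stages as well, with log2 ratios of 1.5, 0.86 and 0.60.

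Of the 24 T-box genes listed 10 were measured, tbx1 included. Of the other 9, tbx2a, tbx2b, tbx3a and eomesa are shared with the cardiac and lateral plate list and so counted in both. Of all 9, at shield 5 fell and 1 rose, at tailbud 3 fell and 1 rose, and at 7-somite 1 fell and 4 rose. tbx6, a presomitic gene, was at 98 ± 50.5 in sphere-treated and 1731 ± 148 in epiboly-treated tailbud embryos, and at 2373 ± 534 and 2728 ± 197 at 7-somite, where it did not pass (limma adjusted p = 0.55). The T-box genes that fell at 7-somite were tbx1 and tbxtb. tbxtb, a Brachyury gene, was at 120 ± 11.7 in sphere-treated and 192 ± 11.7 in epiboly-treated embryos. In the list of helix-loop-helix and NK-type genes, 7 of 23 were measured, hand2 and nkx2.7 included. Of the other 5, which include twist1a of the cardiopharyngeal list, 2 fell at shield, 4 at tailbud and 3 at 7-somite, and the rest did not pass. Their median log2 ratios were -0.17, -2.31 and -0.70. Beside the counts of both lists stand the calls over all genes, 21.3% lower and 21.8% higher at shield, 2.3% and 0.738% at tailbud, and 13.5% and 9.46% at 7-somite. twist1a reaches the minimum mean set for every record in epiboly-treated embryos alone, so its falls are not independent of that minimum.

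Of 18 listed genes of differentiated heart muscle 5 were measured, and these are shared with skeletal muscle or other tissue. At shield ttn.1 and ttn.2, which encode titins of the sarcomere, rose (log2 ratios 0.76 and 0.46) and the other 3 did not pass. At 7-somite 2 fell and 1 rose, atp2a2a, a calcium pump gene, at 360 ± 33.4 in sphere-treated and 244 ± 12.6 in epiboly-treated embryos (limma adjusted p = 0.016). At tailbud 3 fell, among them actc1a, an actin gene, at 12 ± 3.46 in sphere-treated and 147 ± 26.6 in epiboly-treated embryos. nkx2.5, gata4, tbx5a, tbx20 and the cardiac myosin gene myl7 were not analysed here.

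Markers of other cell types that can hold tbx1 or hand2 transcripts were counted as well. Over all genes, 21.3% were called lower and 21.8% higher at shield, 2.3% and 0.738% at tailbud, and 13.5% and 9.46% at 7-somite. Of 18 listed genes of the pharyngeal endoderm 9 were measured, with gata5 shared with the cardiac list. At shield 5 fell and 4 did not pass, at tailbud 3 fell and 1 rose, and at 7-somite 4 fell and 1 rose. Their summed means were 5173 in sphere-treated and 8070 in epiboly-treated embryos at shield, 4357 and 5446 at tailbud, and 5541 and 5877 at 7-somite. These sums are weighted to abundant genes. The gene that rose at tailbud, cxcr4a, was at 1942 ± 22.3 in sphere-treated and 1450 ± 22.5 in epiboly-treated embryos. The one that rose at 7-somite, alcama, was at 3007 ± 77.1 and 2493 ± 60.1. Among the 4 that fell at 7-somite, foxa2 was at 45 ± 21.2 and 195 ± 19.2. sox17, an endoderm marker, was at 7 ± 1.2 in sphere-treated and 246 ± 51.5 in epiboly-treated tailbud embryos. foxa2 and sox17 fell at all 3 stages, and both reach the minimum mean set for every record in epiboly-treated embryos alone. Their lower level in sphere-treated embryos is not independent of that minimum. The counts of this list therefore do not show whether endoderm genes fell more often than all genes. Of 16 otic and preplacodal genes 14 were measured, with eya1, fgf3 and six1b shared with the cardiopharyngeal list. At shield 4 fell and 7 rose, at tailbud 1 fell and 4 rose, and at 7-somite 3 fell and 2 rose. The gene that fell at tailbud was pax8, at 39 ± 9.94 in sphere-treated and 363 ± 15 in epiboly-treated embryos. Summed means of the otic list were 19511 and 14741 at shield, 28633 and 21115 at tailbud, and 19726 and 19284 at 7-somite, in sphere-treated and epiboly-treated embryos in that order. In that list six1b was listed at 0 in both shield groups.

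Of 17 listed neural crest genes 14 were measured, with twist1a shared with the cardiopharyngeal list, and sox9b and tfap2a with the otic list. At shield 4 fell and 4 rose, near the shares over all genes (21.3% lower and 21.8% higher). At tailbud 2 fell and 2 rose (2.3% and 0.738% of all genes), and at 7-somite 7 and 4 (13.5% and 9.46%). Among those that fell was twist1a, which reaches the minimum mean set for every record in epiboly-treated embryos alone. The blood counts below stand beside the same shares. Summed means of the crest list were 11677 in sphere-treated and 9708 in epiboly-treated embryos at tailbud, and 11130 and 11372 at 7-somite. Most of the tailbud sum came from tfap2a alone, at 9355 ± 732 in sphere-treated and 6214 ± 159 in epiboly-treated embryos. The tailbud sums thus say little about the other crest genes. Of 20 blood and endothelium genes 8 were measured, with hhex shared with the pharyngeal endoderm list and so counted in both. At shield gata2a, a GATA factor gene of blood and ectoderm, rose and the other 7 did not pass, and at tailbud hhex fell and gata2a rose. Their summed means were 6570 in sphere-treated and 3160 in epiboly-treated embryos at shield, 6949 and 4130 at tailbud, and 3307 and 4905 at 7-somite. gata2a alone was at 6183 ± 567 in sphere-treated and 2695 ± 164 in epiboly-treated shield embryos. At 7-somite 5 fell and 3 did not pass. Among those that fell was tal1, a regulator of blood formation from the lateral plate, at 80 ± 26.9 in sphere-treated and 610 ± 47.8 in epiboly-treated embryos. Some of the 5, tal1 and fli1 among them, reach the minimum mean set for every record in epiboly-treated 7-somite embryos alone. Their lower level in sphere-treated embryos is not independent of that minimum. The count therefore does not show whether blood genes fell more often than all genes. The part of these other cell types in the levels of tbx1 and hand2 was not tested.

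Germ cell and maternal transcripts also differed at shield. Of 20 such genes 19 were measured, and at shield 16 fell and 1 rose, with a median log2 ratio of -0.75. Over all genes 21.3% were called lower and 21.8% higher at that stage. Summed means at shield were 111670 in sphere-treated and 126623 in epiboly-treated embryos, mostly from ybx1 and pou5f3. ybx1 was at 52558 ± 2010 and 47270 ± 150 and was not called, and pou5f3 was at 36652 ± 3290 and 45253 ± 183. At tailbud limma called 0 of the 19, with 3 at an unadjusted p under 0.05, and at 7-somite 1 fell. Their part in the shield ratios of tbx1 and nkx2.7 was not tested.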

How the data were processed

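RNA of whole zebrafish embryos was sequenced from TruSeq v2 libraries, per the labels' protocols. The authors deposited 1 table of 13321 RefSeq records with UQN means and standard errors (scores, per the file headers), a ratio per stage and a yes or no call, per the file headers. Per the submitters' processing notes, the authors list DESeq 1.6.1, with no step given. Aligner and genome build: not given in the sources used here. Coordinates are therefore left out. Every record reaches a mean of 101 in at least 1 group, and genes low in all groups were not analysed here. For a gene that reaches 101 in epiboly-treated embryos alone, a lower level in sphere-treated embryos is not independent of this minimum. Named genes of this kind include tbx1, twist1a, foxa2, sox17, casz1, mespaa, hey2, tal1 and fli1. Depth is unknown. Within rounding, 11992 of the 11992 standard errors above 0 and under 5 can come from 3 whole numbers (10.4% would by chance).

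Symbols came from a RefSeq table of assembly GRCz12tu (12182 records matched by gene identifier, 42 by accession, 1097 unmatched). The highest-mean record per symbol was kept, which set 47 aside. Variances of log2(mean + 5) came from the standard errors by the delta method and were moderated with limma 3.58.1 (R 4.3.3, squeezeVar with the mean log2 level as covariate), and p-values were two-sided with Benjamini-Hochberg adjustment. The planned test named no such trend. Moderation without it was run first, and the trend was adopted after both results had been seen, because it gave the counts of calls that earlier work on these data had reported. Moderation without the trend is kept as an added alternative. The choice decides the tailbud call of hand2 (limma adjusted p = 0.02 with the trend and 0.068 without). The test was also run on simulated data, but the outcome is not reported here and supports no result above. No filter on low values was applied. Alternatives were pseudocounts of 1 and 20, TMM factors, equal totals, no moderation, pooled variances, a minimum mean of 50, and a limma fit on the 6 means. Named genes were the 3 members, up to 4 genes per list and stage with the largest ratio among those called, the cardiac and lateral plate list, and the 5 genes most correlated with each member. The values of 1 listed gene are not reported here, though the list counts include it. isl1a falls outside that rule and was named after its values were seen. Members and lists were chosen with earlier results of these data known.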

Additional observations from a re-analysis of the deposited data

Results flagged for a closer look

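For tbx1 and hand2 the onset ratio differed between stages by a direct test of the difference, with limma-moderated errors adjusted over all genes. For tbx1 the log2 ratio at tailbud minus that at shield was -3.05, and that at 7-somite minus that at tailbud was 1.86. The sphere-treated means of tbx1 are near 0, so both sizes depend on the pseudocount. The first was -3.69 with a pseudocount of 1 and -2.42 with 20, and the second 2.72 and 1.06. For hand2 the log2 ratio at tailbud minus that at shield was -1.72, and that at 7-somite minus that at shield was -1.50. The shield ratio of hand2 rests on means of 1 in sphere-treated and 1 in epiboly-treated embryos, so its differences from shield also reflect that the transcript was near 0 then.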

How the results depend on the processing

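Without moderation of the variance the count of the 3 genes called was 0 at shield, 1 at tailbud and 2 at 7-somite. Calls over all genes were then 1435 at shield, 42 at tailbud and 697 at 7-somite, against 5719, 403 and 3052. Moderation without a trend, the version run first, called 1 of the 3 genes at tailbud, and 264 of all genes at tailbud and 1954 at 7-somite. Pooled variances called 939 of all genes at tailbud, and 2 of the 3 genes at 7-somite. The gene lost at 7-somite was nkx2.7 in both of these settings, without moderation and with pooled variances. A minimum mean of 50 left 1 called at shield and 1 in the step between tailbud and 7-somite in sphere-treated embryos, because members under the minimum were not tested. A pseudocount of 20 called 2 for the difference between 7-somite and shield. The limma fit on 6 means with stage as a block called 0 over the 3 stages. The causes of the other changes were not tested. No log2 ratio of a called gene reversed under the alternatives run. Of the 176 recomputed member ratios, 166 kept their direction and side of the threshold, 8 lost the call, 1 gained it and 1 that was not called changed sign. The 166 include the alternatives for hand2 at shield. Its main log2 ratio there was 0.00, so it had no direction to keep and was counted as kept by rule. No paired analysis was possible because the labels list 1 sample per group, and single values could not be left out because only means are at hand. Rounded means limit tbx1 in sphere-treated embryos and all members at shield.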

Other observations

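In the authors' deposited table no record is called at a stage where its higher mean is under 100. At shield 266 records with a higher mean under 100 differ by at least 2-fold between the onsets and 0 of them are called, while 632 of the 639 such records at 100 or more are called. At tailbud the counts are 0 of 165 and 102 of 194, and at 7-somite 0 of 79 and 81 of 251. tbx1 at shield, with a higher mean of 66, is among the records without a call.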
